A study of Mus musculus with 6 samples.

Results

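The 10 genes described here encode proteins that coat, build or break down lipid droplets, together with a fatty acid transporter: Plin2, Plin3, Plin4, Plin5, Cideb, Cidec, Fitm2, Pnpla2, G0s2 and Cd36. They were chosen by name and taken from a table of raw read counts that held 56350 mouse gene IDs. All 10 were found in the table, and all 10 were among the 16051 genes that passed the filter on low counts. RNA came from whole mouse liver, with 3 libraries from mice with a hepatocyte-specific knockout of Atg14 (HepKO) and 3 from wild-type mice (WT). The Atg14 protein belongs to the complex that makes the lipid signal for new autophagosomes. By its label the deletion is limited to hepatocytes, so the other cells of the liver keep the gene, while the labels give no Cre driver, age, sex or diet. They also do not say that the 3 libraries of a group are 3 different mice, so a p-value here weighs only the spread among libraries, part of which may be technical. Sex-linked genes, given further on, show that the HepKO libraries did not all come from 1 mouse. Values per library are given in the order of replicates 1 to 3.

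A lipid droplet is a core of triglyceride and sterol ester inside a phospholipid monolayer. Proteins of the perilipin family (Plin) coat that surface and control which lipases reach the core, while CIDE proteins (Cideb, Cidec) promote droplet growth and the lipidation of secreted lipoproteins. Fitm2 acts in the membrane of the endoplasmic reticulum, where droplets form. Adipose triglyceride lipase, the product of Pnpla2, makes the first cut in stored triglyceride. It is activated by Abhd5 and inhibited by G0s2. Several of these genes are known targets of the nuclear receptor PPARα in mouse liver, which binds direct repeats of AGGTCA-like motifs.

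The start regions of 5 genes are printed because these genes include the 3 with the lowest fold changes (G0s2, Plin4 and Plin5) and the 3 whose windows hold AGGTCA (Plin5, Plin2 and Cd36). Each is the RefSeq window of 300 bases in GRCm38.p6, the same assembly as mm10, running from 250 bases before the start site to 50 after it, 5′ to 3′ on the strand of the gene. Capitals mark AGGTCA or its reverse complement TGACCT.
Plin5, chr17:56117499-56117798, minus strand: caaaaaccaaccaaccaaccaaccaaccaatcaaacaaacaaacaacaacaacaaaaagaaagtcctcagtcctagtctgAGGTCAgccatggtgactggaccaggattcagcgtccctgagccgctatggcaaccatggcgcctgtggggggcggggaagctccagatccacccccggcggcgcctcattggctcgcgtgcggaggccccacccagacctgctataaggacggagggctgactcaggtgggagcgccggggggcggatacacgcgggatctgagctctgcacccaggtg
Plin4, chr17:56109733-56110032, minus strand: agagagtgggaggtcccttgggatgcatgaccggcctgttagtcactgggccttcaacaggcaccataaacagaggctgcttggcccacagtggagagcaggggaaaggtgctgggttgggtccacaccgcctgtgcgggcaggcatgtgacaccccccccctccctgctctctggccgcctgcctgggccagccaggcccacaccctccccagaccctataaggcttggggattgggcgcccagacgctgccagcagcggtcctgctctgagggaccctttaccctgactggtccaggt
G0s2, chr1:193273139-193273438, minus strand: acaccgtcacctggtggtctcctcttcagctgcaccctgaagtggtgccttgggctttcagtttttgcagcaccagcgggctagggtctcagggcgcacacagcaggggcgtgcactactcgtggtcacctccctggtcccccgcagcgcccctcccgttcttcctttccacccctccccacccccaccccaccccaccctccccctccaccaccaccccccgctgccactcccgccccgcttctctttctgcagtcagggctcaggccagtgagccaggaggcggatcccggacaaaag
Plin2, chr4:86670010-86670309, minus strand: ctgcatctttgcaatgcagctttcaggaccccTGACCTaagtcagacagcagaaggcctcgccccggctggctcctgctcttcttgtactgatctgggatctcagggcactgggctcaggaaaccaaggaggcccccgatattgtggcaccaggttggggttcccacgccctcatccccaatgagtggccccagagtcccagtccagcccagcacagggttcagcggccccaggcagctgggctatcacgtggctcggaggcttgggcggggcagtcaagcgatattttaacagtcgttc
Cd36, chr5:17835847-17836146, minus strand: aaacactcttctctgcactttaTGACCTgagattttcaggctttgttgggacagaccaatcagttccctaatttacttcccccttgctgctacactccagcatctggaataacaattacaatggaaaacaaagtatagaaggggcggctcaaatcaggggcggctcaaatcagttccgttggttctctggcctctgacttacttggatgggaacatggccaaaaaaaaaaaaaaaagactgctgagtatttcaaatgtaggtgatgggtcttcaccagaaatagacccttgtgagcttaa
All 10 genes matched at least 1 RefSeq window, 12 windows in all, because Plin5 and Cidec had a second start site. AGGTCA was found, on either strand, in 4 of the 12 windows, in 3 genes, and 16.3% of the 32851 mouse promoter windows of the same length held it. In Plin5 it began 170 bases upstream of the first start site and 13 bases downstream of the second, in Plin2 218 bases upstream and in Cd36 228 bases upstream. The motif read as a direct repeat with 1 base between its copies was in none of the 12 windows and in 0.0396% of all windows. At so low a share, none in 12 windows was the likely outcome for any genes. The search took exact letters only, while PPARα binds AGGTCA-like repeats, so it cannot decide whether such sites are present. The GC box GGGCGG, searched on both strands, was in 9 of the 12 windows and in 35.7% of all windows, and its letters cannot overlap those of AGGTCA on either strand. AGGTCA was present in a gene called lower (Plin5) and in genes that were not called (Plin2 and Cd36), and these letters were not found in the windows of Plin4 or G0s2. Sequence outside the windows was not searched, and the part of these letters in the fold changes was not tested. The Cd36 window lies inside the annotated gene (17781690 to 17888801), so start sites further upstream were not searched.

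Total counts ranged from 33145684 to 48951937 per library. Atg14 had 329, 379 and 313 counts in HepKO livers and 620, 796 and 719 counts in WT livers, and it fell by 1.54 on the log2 scale (SE 0.16, FDR 4.69e-04). HepKO replicate 1 stood apart in its sex-linked genes. Its Xist level was 523 CPM (counts scaled to a common library size), against 0.490 and 0.381 CPM in the other HepKO libraries, and its Ddx3y level was 0.0517 CPM, against 73.1 and 66.0 CPM in the other HepKO libraries. All 3 WT libraries had low Xist (at most 0.195 CPM) and high Ddx3y (at least 78.7 CPM). By these genes HepKO replicate 1 reads as female and the other libraries as male, so sex was not balanced between the groups. The part of sex in the results was not tested, and it cannot be told apart from other traits of that library. Results that rest on HepKO replicate 1 are given with and without it. All 10 hepatocyte markers fell in HepKO livers (summed level 45304 to 56481 CPM, against 118937 to 137377 CPM in WT livers), and 12 of 13 tested macrophage markers rose (1063 to 1122 CPM in HepKO livers and 227 to 438 CPM in WT livers). Without HepKO replicate 1 these counts were 8 of 10 and 10 of 13. Under library totals they were 7 of 10 and 13 of 13, so the count of hepatocyte markers that fell depends on the scaling. Without Spp1, which is also on the cholangiocyte list, the macrophage sums were 988, 548 and 872 CPM in HepKO livers and 192, 384 and 216 CPM in WT livers. Of 7 tested cholangiocyte markers 4 rose and none fell, with or without HepKO replicate 1, and HepKO replicate 2 had the highest sum (161, 586 and 234 CPM in HepKO livers, against 56.6 to 75.4 CPM in WT livers). Of 10 stellate cell markers 4 rose and none fell with all libraries, 3 rose and 1 fell (Ecm1) without HepKO replicate 1, and 8 were higher under library totals. In bulk tissue, fewer cells of a type and less RNA per cell cannot be told apart, and the part of cell makeup in the results was not tested.

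The genes for 5 of the 10 droplet proteins fell in HepKO livers and none rose by the test. G0s2, Plin4, Plin5, Fitm2 and Cideb were called lower by the quasi-likelihood test of edgeR with Benjamini-Hochberg adjustment over all tested genes, at an adjusted p (FDR) under 0.05. Plin2, Plin3, Cidec, Pnpla2 and Cd36 did not pass. Of all genes tested, 38.2% were called, 18.7% lower and 19.5% higher, so 5 lower members of 10 stood beside a background of 18.7%. The median log2 fold change (log2FC, HepKO over WT) of the 10 genes was -0.82, and that of all tested genes was 0.01. HepKO and WT libraries were fully apart for 6 members, 5 lower in HepKO livers and 1 higher (Plin3). Of all tested genes, 53.5% were apart in this way, 26.4% lower and 27.1% higher. These folds depend on how libraries are scaled. They use edgeR's TMM factors (trimmed mean of M-values), which ran from 1.19 to 1.21 in HepKO libraries and from 0.824 to 0.860 in WT libraries, and with library totals alone the median of all genes moves to 0.52. Under library totals 4 members were higher (Plin2, Plin3, Pnpla2 and Cd36) and 4 lower (Plin4, Plin5, G0s2 and Fitm2), where 52.2% of all genes were called, 46.4% higher and 5.84% lower, and Cideb was no longer called (FDR 0.0851). G0s2, Plin4, Plin5 and Fitm2 were lower under both scalings.

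**Figure D1:**
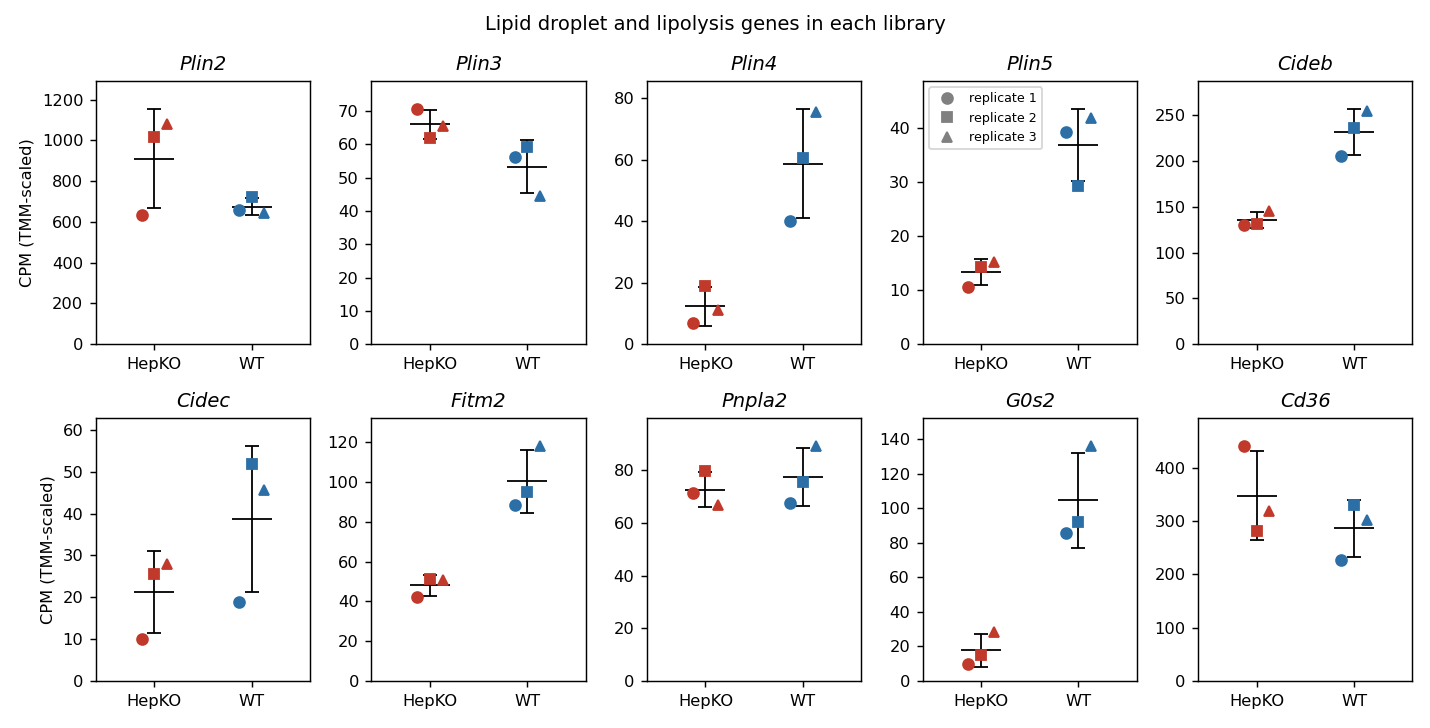
Each panel plots the TMM-scaled CPM of 1 gene in the 3 HepKO and 3 WT libraries (symbols mark the replicate number), with the mean and SD as a line and bars. HepKO libraries are all below WT libraries for G0s2, Plin4, Plin5, Fitm2 and Cideb, and all above them, by a narrow gap, for Plin3. Of all tested genes, 53.5% were apart in 1 of these ways. Plin2 is split by HepKO replicate 1 at 634 CPM.

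Plin2 (ENSMUSG00000028494.12, chromosome 4, 86648386 to 86670060 in GRCm38, minus strand), the main perilipin coat of hepatocyte droplets, had the highest level per length of the 10 genes in both groups. Its level was 634, 1018 and 1082 CPM in HepKO livers, against 656, 722 and 643 CPM in WT livers. HepKO replicates 2 and 3 lay above every WT library and HepKO replicate 1 lay below every WT library. With all 6 libraries the difference did not pass (log2FC 0.43 ± 0.20, SE, FDR 0.120). Without HepKO replicate 1 it did (log2FC 0.63 ± 0.11, FDR 0.00418), where 33.9% of all genes were called, 16.3% higher and 17.5% lower. Without HepKO replicate 3 the log2FC was smaller and not called (0.285 ± 0.21, FDR 0.347). In the fit without HepKO replicate 1, 1 member was higher and the same 5 members were lower. Under library totals it was also called higher with all 6 libraries (log2FC 0.95 ± 0.20, FDR 0.00605).

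Plin3 (ENSMUSG00000024197.10), a perilipin that moves between the cytosol and nascent droplets, had 70.6, 61.8 and 65.6 CPM in HepKO livers and 56.3, 59.4 and 44.4 CPM in WT livers. Every HepKO library was above every WT library, by a narrow gap between HepKO replicate 2 and WT replicate 2. The difference did not pass under TMM (log2FC 0.31 ± 0.13, FDR 0.0900) and passed under library totals (log2FC 0.82 ± 0.13, FDR 0.00172).

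Plin4 (ENSMUSG00000002831.14), a perilipin best known from adipose tissue, was lower in every HepKO library. Its level was 6.78, 19.1 and 11.1 CPM in HepKO livers, against 40.2, 60.5 and 75.4 CPM in WT livers. The groups did not overlap, and the libraries varied within both. Plin4 fell 4.78-fold (log2FC -2.26 ± 0.38, FDR 0.00280). Plin5 (ENSMUSG00000011305.11), the perilipin of oxidative tissues that links droplets to mitochondria, had 10.7, 14.3 and 15.2 CPM in HepKO livers and 39.4, 29.3 and 41.9 CPM in WT livers, again with no overlap. It fell 2.75-fold (log2FC -1.46 ± 0.18, FDR 8.32e-04). Neither call changed without HepKO replicate 1 (log2FC -1.97 ± 0.32 for Plin4 and -1.33 ± 0.17 for Plin5).

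Markers of adipocytes were read beside Plin4 because that tissue also expresses it. Lep had no counts in any library. Adipoq had none in HepKO livers and reached 0.205 CPM in a single WT library, replicate 3. Plin1, the perilipin of adipocyte droplets, had 1 count in HepKO replicate 1, 1 in WT replicate 3 and 0 elsewhere. Cfd, which is also secreted by adipocytes, had 0 to 0.102 CPM in HepKO libraries and 12.7, 16.8 and 66.4 CPM in WT livers. Of the 11 adipocyte markers 5 were tested, 2 higher (Lpl and Fabp4) and 2 lower (Cfd and Lipe) in HepKO livers, and the summed level was 269 to 348 CPM in HepKO livers and 121 to 174 CPM in WT livers. Lpl, which other liver cells also express, made up most of that sum in every HepKO library, but not in WT replicates 2 and 3. Without Lpl the sum was mostly lower in HepKO livers, at 35.6 to 56.5 CPM, against 56.2 to 125.1 CPM in WT livers. That remainder includes Cfd, which was nearly absent from HepKO livers. A sum without both genes was not taken, so the lower remainder does not show a fall of the adipocyte markers as a set. The skeletal muscle list, read because muscle expresses Plin4 and Plin5, summed to 0.936 to 1.40 CPM in HepKO livers and 0.864 to 2.26 CPM in WT livers, with Myh2, Myh4 and Mb at 0 counts in all 6 libraries.

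Plin4 and Plin5 are neighbours on the minus strand of chromosome 17 (Plin4 from 56100591 to 56109803 and Plin5 from 56111601 to 56117596 in GRCm38), with 1797 bases between the annotated genes. Plin3 lies 159879 bases beyond Plin5 on the same strand, from 56277476 to 56292873. Among the 9 other genes tested from 20000 bases before Plin4 to 20000 after Plin3, a stretch chosen after the member values were seen, 1 was called lower (Fem1a) and 1 higher (Uhrf1). Of all tested genes, 38.2% were called, 18.7% lower and 19.5% higher. Hdgfl2, whose 3′ end overlaps that of Plin4 by 17 bases on the other strand, was at 40.6, 42.1 and 41.9 CPM in HepKO livers and 33.2, 35.8 and 37.5 CPM in WT livers (log2FC 0.23 ± 0.09, FDR 0.0792). Hdgfl2 was 1 of 7 neighbours that were not called under TMM, and it was called higher under library totals (log2FC 0.74 ± 0.09, FDR 5.30e-04).

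The perilipin mix was more dominated by Plin2 in HepKO livers. Counts per kilobase of exon were summed over Plin2, Plin3, Plin4 and Plin5. The share of each gene in that sum does not depend on how libraries are scaled. Plin2 took 87.9%, 91.6% and 92.1% of that sum in HepKO livers, against 82.1%, 83.6% and 80.3% in WT livers. Plin5 took 2.28% ± 0.184 in HepKO livers and 7.61% ± 1.66 in WT livers (SD, n = 3 each), and Plin4 took 0.729% ± 0.272 in HepKO livers and 4.35% ± 1.34 in WT livers. For these 3 genes no library of a group overlapped the other group (exact permutation p = 0.1 each, two-sided, the smallest that 3 against 3 allows, and 0.16 adjusted over the 8 ratios and shares tested). The share of Plin3 was 6.47% ± 2.25 in HepKO livers and 6.02% ± 0.762 in WT livers (exact permutation p = 0.8, two-sided, and 0.8 adjusted), and HepKO replicate 1 had the highest share at 9.07%.

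**Figure D2:**
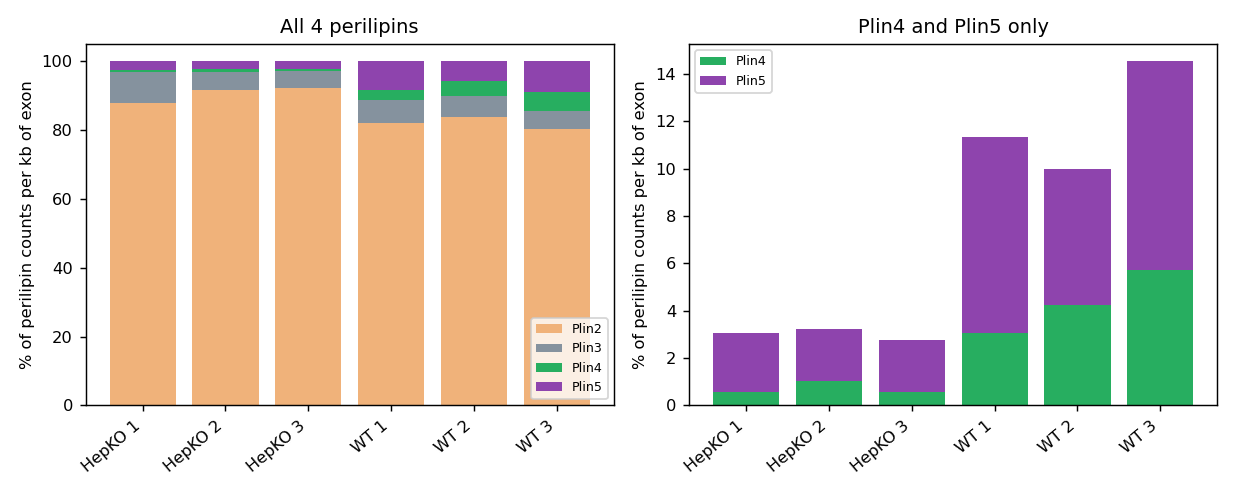
Stacked bars give the share of each perilipin gene in the summed perilipin counts per kilobase of exon, in percent, for each library, with Plin4 and Plin5 alone on a wider scale at right. Plin4 takes 0.571% to 1.04% in the HepKO libraries and 3.06% to 5.72% in the WT libraries.

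Cideb (ENSMUSG00000022219.10), the CIDE gene that hepatocytes express most, was at 130, 131 and 146 CPM in HepKO livers, against 205, 236 and 254 CPM in WT livers, with no overlap. Under TMM it fell 1.70-fold (log2FC -0.77 ± 0.11, FDR 0.00161). Under library totals its log2FC was -0.26 ± 0.11, below the median of all genes at 0.52 and without a call. Of the 1488 exon bases annotated for Cideb (chromosome 14, 55754050 to 55758458, minus strand), 1136 (76.3%) also lie in exons of Nop9 on the other strand. The sources used here do not give the strand setting of the counting, so reads of that stretch may have been lost or shared. Nop9 itself had 15.9, 13.5 and 12.9 CPM in HepKO livers and 15.7, 14.5 and 16.8 CPM in WT livers (log2FC -0.15 ± 0.13, FDR 0.379).

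Cidec (ENSMUSG00000030278.11, chromosome 6, 113424634 to 113435760 in GRCm38, minus strand), the CIDE gene of large droplets and fatty liver, varied within both groups. It had 9.92, 25.6 and 28.0 CPM in HepKO livers, and 19.0, 51.8 and 45.5 CPM in WT livers. Replicate 1 was the lowest library of each group, and the ranges overlapped. No difference was called (log2FC -0.88 ± 0.45, FDR 0.161, and -0.54 ± 0.37, FDR 0.304, without HepKO replicate 1). Cidec was called lower with no filter on low counts (FDR 0.00563), where 10.3% of all genes were called lower. It was also called lower with the replicate number as a block (FDR 0.00464), where 15.6% of all genes were. The count ratio of Cidec to Cideb was 0.0760, 0.195 and 0.192 in HepKO livers and 0.0925, 0.220 and 0.179 in WT livers (exact permutation p = 0.7, two-sided, and 0.8 adjusted). Cidea, the third CIDE gene, reached 20.6 CPM in WT replicate 2 and at most 1.02 CPM in the other 5 libraries, and it did not pass the filter.

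Fitm2 (ENSMUSG00000048486.6, chromosome 2, 163466379 to 163472629 in GRCm38, minus strand), which is needed for droplets to bud from the endoplasmic reticulum, was at 42.0, 51.5 and 50.9 CPM in HepKO livers, against 88.3, 94.9 and 118 CPM in WT livers. The groups did not overlap, and Fitm2 fell 2.09-fold (log2FC -1.06 ± 0.14, FDR 0.00103). An antisense transcript that shares 5.72% of the Fitm2 exon bases had at most 11 counts in a library. Fitm1, a relative of Fitm2 mostly known from muscle, fell as well (7.67 ± 3.76 CPM in HepKO livers and 28.9 ± 9.30 CPM in WT livers, SD, n = 3 each, log2FC -1.92 ± 0.37, FDR 0.00531), a gene chosen after its values were seen.

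Pnpla2 (ENSMUSG00000025509.15, chromosome 7, 141455198 to 141460743 in GRCm38, plus strand), the lipase gene, showed no called difference under TMM. It had 71.5, 79.8 and 66.8 CPM in HepKO livers and 67.6, 75.4 and 89.3 CPM in WT livers, and the ranges overlapped (log2FC -0.09 ± 0.13, FDR 0.608). Under library totals it was called higher (log2FC 0.42 ± 0.13, FDR 0.0243), a fold below the median of all genes on that scale.

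G0s2 (ENSMUSG00000009633.3, chromosome 1, 193272161 to 193273217 in GRCm38, minus strand), the inhibitor of that lipase, was at 9.78, 14.9 and 28.5 CPM in HepKO livers, against 85.5, 92.1 and 136 CPM in WT livers. The groups were far apart, and the HepKO libraries spread widely among themselves. G0s2 had the lowest fold of the 10 genes, a 5.91-fold fall (log2FC -2.56 ± 0.38, FDR 0.00171). The call held without HepKO replicate 1 (log2FC -2.28 ± 0.32, FDR 0.00223) and under library totals (log2FC -2.05 ± 0.37, FDR 0.00280).

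The count ratio of inhibitor to lipase, G0s2 over Pnpla2, does not depend on scaling. It was 0.137, 0.187 and 0.427 in HepKO livers and 1.26, 1.22 and 1.52 in WT livers. Every HepKO library was below every WT library, a difference of -2.58 on the log2 scale (exact permutation p = 0.1, two-sided, the smallest possible, and 0.16 adjusted). Per kilobase of exon, G0s2 was at 11.2, 17.1 and 32.8 CPM in HepKO livers and 98.2, 105.8 and 156 CPM in WT livers, and Pnpla2 at 23.7, 26.4 and 22.1 CPM in HepKO livers and 22.4 to 29.6 CPM in WT livers. On that scale G0s2 exceeded Pnpla2 in HepKO replicate 3 and in all 3 WT libraries. The ratio of Abhd5, the activator, to Pnpla2 was 0.583, 0.442 and 0.604 in HepKO livers and 0.480, 0.523 and 0.390 in WT livers, with overlap (exact permutation p = 0.3, two-sided, and 0.4 adjusted). Abhd5 alone was at 41.7, 35.2 and 40.4 CPM in HepKO livers and 32.5, 39.5 and 34.8 CPM in WT livers (log2FC 0.14 ± 0.11, FDR 0.382). The ratio of Plin2 to Plin5 was 59.3, 71.1 and 71.1 in HepKO livers and 16.7, 24.6 and 15.4 in WT livers, 3.62-fold higher in HepKO livers (exact permutation p = 0.1, two-sided, and 0.16 adjusted).

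**Figure D3:**
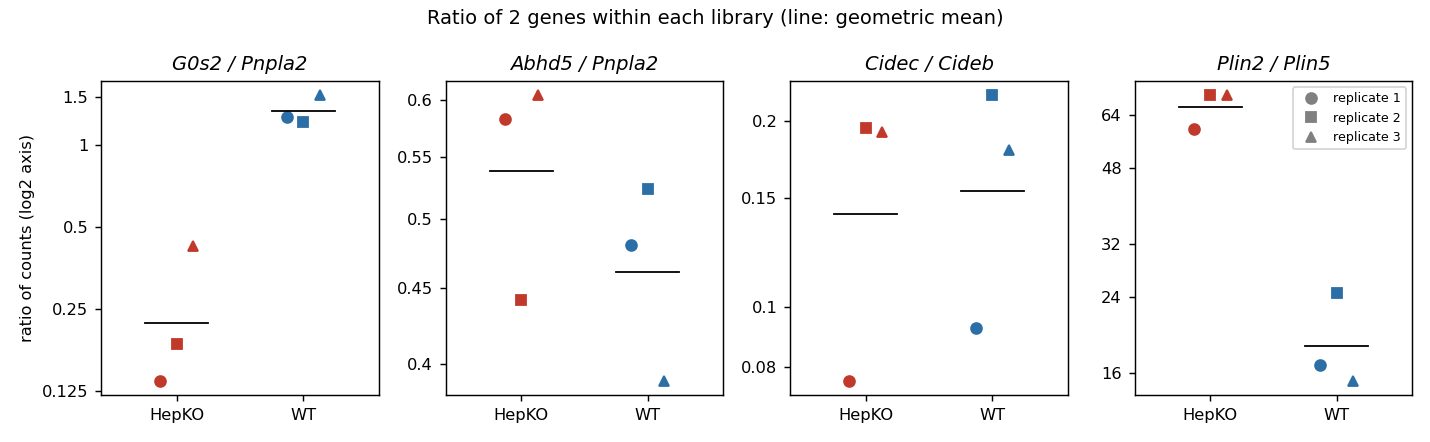
Points are the ratio of the counts of 2 genes within each HepKO and WT library, on log2 axes that differ between panels, with the geometric mean as a line. G0s2 over Pnpla2 is at 0.427 or less in the HepKO libraries and at 1.22 or more in the WT libraries, and Plin2 over Plin5 is apart in the other direction.

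Cd36 (ENSMUSG00000002944.15, chromosome 5, 17781690 to 17888801 in GRCm38, minus strand), a membrane transporter for long-chain fatty acids, showed no called difference under TMM. It had 441, 282 and 319 CPM in HepKO livers and 228, 331 and 302 CPM in WT livers. HepKO replicate 1 was the highest of all 6 libraries and the other HepKO libraries lay within the WT range. The log2FC was 0.28 ± 0.20 (FDR 0.311) with all libraries, 0.06 ± 0.16 (FDR 0.811) without HepKO replicate 1, and 0.78 ± 0.20 (FDR 0.0136) under library totals. Macrophages and endothelial cells also express Cd36. Macrophage markers were higher in HepKO livers while of 10 endothelial markers 1 rose (Cdh5) and 0 fell (summed level 254 to 321 CPM in HepKO livers and 232 to 294 CPM in WT livers). Under library totals 6 of the 10 endothelial markers were higher and all 13 macrophage markers, and their part in the Cd36 values was not tested.

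**Figure D4:**
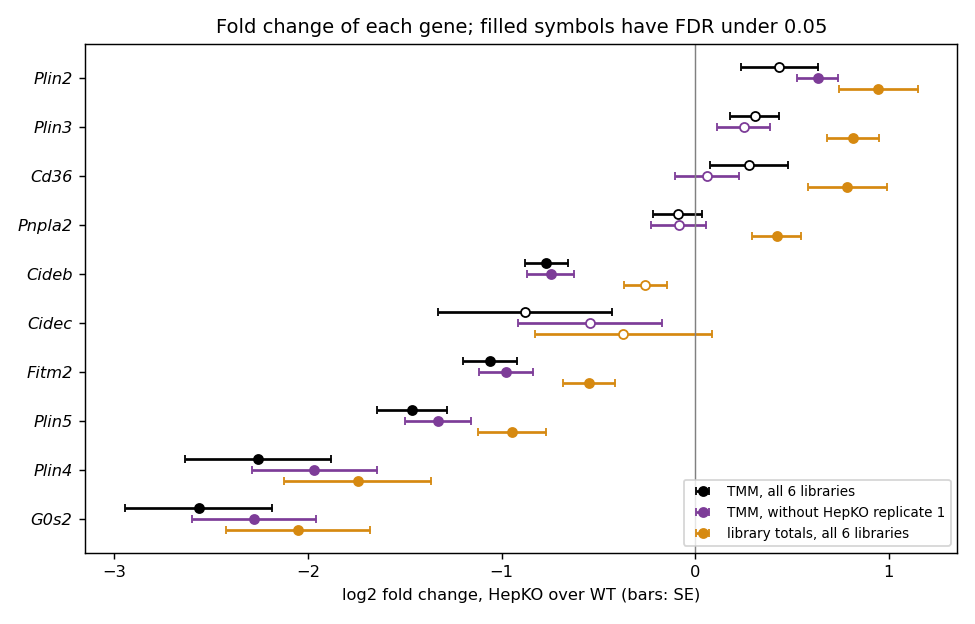
Points are the log2 fold change of each gene, HepKO over WT, with SE bars, from the fit with TMM scaling on 6 libraries, the same fit without HepKO replicate 1, and the fit on library totals. G0s2, Plin4, Plin5 and Fitm2 are below 0 and called in all 3, and Plin2 moves to a call at 0.63 without that library.

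Across the 10 genes, HepKO replicate 1 was the lowest HepKO library for 7 and the highest for 2 (Plin3 and Cd36). On a per-length scale (CPM per kilobase of exon), the order of levels also differed between the groups, as a description. In HepKO livers the order was Plin2 (259 ± 68.9), Cd36 (96.8 ± 23.2), Cideb (91.3 ± 5.80), Pnpla2 (24.1 ± 2.18), G0s2 (20.4 ± 11.1), Plin3 (17.4 ± 1.16), Fitm2 (12.1 ± 1.34), Cidec (11.4 ± 5.28), Plin5 (6.42 ± 1.15) and Plin4 (2.13 ± 1.08 CPM per kilobase, SD, n = 3 each). In WT livers it was Plin2 (192 ± 12.1), Cideb (156 ± 16.7), G0s2 (120 ± 31.6), Cd36 (79.9 ± 14.8), Pnpla2 (25.6 ± 3.63), Fitm2 (25.3 ± 3.97), Cidec (20.9 ± 9.40), Plin5 (17.7 ± 3.19), Plin3 (14.1 ± 2.09) and Plin4 (10.2 ± 3.06 CPM per kilobase). Neighbours whose libraries overlapped in HepKO livers were Cd36 with Cideb, Pnpla2 with G0s2, G0s2 with Plin3, Fitm2 with Cidec, and Cidec with Plin5. In WT livers they were Cideb with G0s2 and each neighbouring pair from Pnpla2 down to Plin4. The level of Cideb per length rests on exons that it shares with Nop9.

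Other genes of droplet coat, assembly and lipolysis were more often lower than higher under TMM. Of 35 listed, 33 were tested, 17 fell and 3 rose, with a median log2FC of -0.38. The 3 were Hilpda, the lysosomal acid lipase gene Lipa and the chaperone gene Hspa8, the last 2 chosen after their values were seen. Without HepKO replicate 1, 15 fell and 2 rose, and under library totals 7 were lower and 9 higher with a median of 0.13, below that of all genes. Of all tested genes, 18.7% were lower and 19.5% higher under TMM. These shares were 17.5% and 16.3% without HepKO replicate 1, and 5.84% and 46.4% under library totals. Dgat2, which makes triglyceride, fell (198 ± 18.1 CPM in HepKO livers and 565 ± 44.4 CPM in WT livers, SD, n = 3 each, log2FC -1.52 ± 0.12, FDR 1.51e-04). The endoplasmic reticulum hydrolase genes Aadac (log2FC -1.45 ± 0.12, FDR 1.65e-04) and Ces1f (log2FC -1.95 ± 0.21, FDR 5.25e-04) fell too. Ces1f has near-identical relatives, so its count is uncertain. The phospholipase gene Pnpla8 fell under TMM (log2FC -0.73 ± 0.09, FDR 7.87e-04) but was not called under library totals (FDR 0.0725).

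Among the other lipolysis genes, Mgll, which cleaves monoglycerides, fell (78.2 ± 22.4 CPM in HepKO livers and 284 ± 98.2 CPM in WT livers, SD, n = 3 each, log2FC -1.86 ± 0.28, FDR 0.00175). Lipe, hormone-sensitive lipase, fell with all libraries (log2FC -0.80 ± 0.22, FDR 0.0249), but was called neither without HepKO replicate 1, where its fold was about as large (log2FC -0.72 ± 0.25, FDR 0.0662), nor under library totals (log2FC -0.28 ± 0.22, FDR 0.307). Hilpda, like G0s2 an inhibitor of adipose triglyceride lipase, went the other way from G0s2 at a low level. It had 3.94, 4.28 and 4.09 CPM in HepKO livers and 0.980, 1.48 and 1.70 CPM in WT livers (log2FC 1.56 ± 0.28, FDR 0.00355). Pnpla3, a lipase-like droplet protein, varied within both groups (4.49, 0.669 and 0.762 CPM in HepKO livers and 6.15, 4.04 and 0.907 CPM in WT livers, FDR 0.454, and 0.0474 without HepKO replicate 1).

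In the list of fatty acid uptake, binding and activation, 22 of 23 genes were tested, 11 fell and 5 rose, with a median log2FC of -0.55. The 5 were Lpl, Acsl4, Fabp4, Fabp7 and Acbd3, the last 2 chosen after their values were seen. Without HepKO replicate 1, 12 fell and 6 rose, where 17.5% of all tested genes were lower and 16.3% higher. With library totals as the scale, 6 were higher and 7 lower, at a median of -0.04. The shares over all tested genes were 18.7% lower and 19.5% higher under TMM, and 5.84% and 46.4% under library totals. Lpl, the lipase that releases fatty acids from circulating lipoproteins, rose (256 ± 39.5 CPM in HepKO livers and 53.2 ± 10.1 CPM in WT livers, SD, n = 3 each, log2FC 2.26 ± 0.17, FDR 1.49e-04), and so did the acyl-CoA synthetase gene Acsl4 (log2FC 1.71 ± 0.15, FDR 2.36e-04). The main liver synthetase Acsl1 fell (393 ± 72.1 CPM in HepKO livers and 1871 ± 569 CPM in WT livers, log2FC -2.25 ± 0.24, FDR 4.73e-04), as did the transporter and bile acid ligase gene Slc27a5 (log2FC -1.28 ± 0.12, FDR 2.86e-04). Liver macrophages also express Lpl, and the part of the higher macrophage markers in its rise was not tested.

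Among regulators known to act on these genes, Ppara fell. Of 23 tested, 15 fell and 1 rose, with a median log2FC of -0.93, beside 18.7% lower and 19.5% higher of all tested genes. Under library totals 10 were lower and 7 higher with a median of -0.43, beside 5.84% and 46.4% of all tested genes. The 1 that rose under TMM was Fgf21, a hormone gene chosen after its value was seen. The TMM counts were the same without HepKO replicate 1, where 17.5% of all tested genes were lower and 16.3% higher. Ppara, which encodes PPARα, fell to 75.0, 103 and 81.6 CPM in HepKO livers, against 262, 289 and 319 CPM in WT livers (log2FC -1.75 ± 0.15, FDR 1.94e-04). Pparg, which encodes the PPAR that drives Cidec and Plin4 in fat, averaged 32.6 ± 5.78 CPM in HepKO livers and 20.8 ± 6.53 CPM in WT livers (SD, n = 3 each). Its groups did not overlap, but the difference was not called under TMM (log2FC 0.65 ± 0.24, FDR 0.0663) and was under library totals (FDR 0.00572). The bile acid receptor gene Nr1h4 (log2FC -0.995 ± 0.11, FDR 4.59e-04), the glucocorticoid-responsive factor Klf15 (log2FC -1.60 ± 0.18, FDR 5.82e-04) and the lipogenic regulator Srebf1 (log2FC -1.33 ± 0.16, FDR 6.52e-04) fell.

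**Figure D5:**
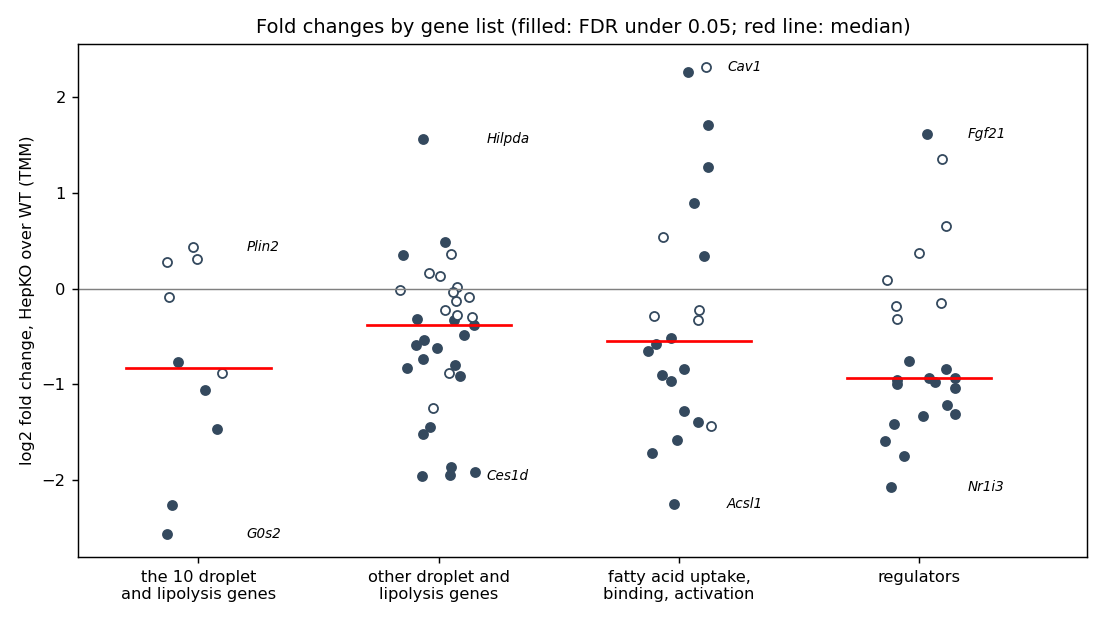
Points are log2 fold changes, HepKO over WT, of the tested genes of 4 lists under TMM, filled where the FDR is under 0.05, with the list median as a red line and the genes at each extreme named. The 10 droplet and lipolysis genes have a median of -0.82, and Acsl3 is in both the second and the third list.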

How the data were processed

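Poly(A) RNA of 3 HepKO and 3 WT mouse liver samples was sequenced with a stranded library kit, per the labels' protocols. The deposited table holds raw counts of reads for each gene. The authors' pipeline, per the submitters' processing notes, used the mm10 genome with STAR 2.7.11a, featureCounts from Subread 2.0.0, bcl2fastq, and version 3.40.2 of edgeR. The annotation and the strand setting are not given. Of 56350 gene IDs, 55480 matched GENCODE M21 (GRCm38) without version. Exon lengths are the union of annotated exons.

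Genes were filtered with filterByExpr by group, counts were scaled with TMM and all CPM use TMM-scaled totals. The test was edgeR's quasi-likelihood F test (version 4.0.16, in R 4.3.3) of HepKO over WT, with no covariates and Benjamini-Hochberg adjustment over 16051 genes. SE is the size of the log2 fold change over the square root of F. Ratios and shares were tested by exact permutation. At 33145684 or more counts per library, the lowest count of a member was 394 (Plin4 in HepKO replicate 1). Counting error is small for the members, and the number of libraries limits their precision. It is larger for genes with few counts, such as Hilpda with 29 in WT replicate 1. Libraries of a group differed by more than sampling noise, with a chi-square of at least 24.2 for each degree of freedom.

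The members and gene lists were chosen with earlier results of these data known. Named are all 10 members, Atg14, the 4 genes of each companion list with the smallest p, and Abhd5, Hilpda, Plin1, Pnpla3, Lipe, Mgll, Ppara and Pparg. Marker genes, Hdgfl2 and Nop9 stand beside a member, and other genes were chosen after their values were seen. Alternatives were DESeq2 1.42.0, limma-voom (limma 3.58.1), RLE factors, library totals, scaling without the 20 most abundant genes, 2 other filters, an FDR of 0.01, each library left out and the replicate number as a block. Counts per companion list without HepKO replicate 1 and under library totals, and marker sums without Lpl or Spp1, were added after seeing the data.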

Additional observations from a re-analysis of the deposited data

How the results depend on the processing

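G0s2, Plin4, Plin5 and Fitm2 were called lower under every alternative run, and Cideb under all but library totals. Under library totals 8 members were called, 4 higher and 4 lower, where 52.2% of all genes were called. Pnpla2 turned to a log2 fold change of 0.42 on that scale. Leaving out each library gave Pnpla2 values of -0.183 to 0.042, the highest without WT replicate 3, and none was called. At an FDR of 0.01, 3444 genes (21.5%) were called in place of 6131 (38.2%), among them the same 5 members. Leaving out each library gave 4392 to 5587 genes called (26.1% to 33.9% of those tested) and 5 to 6 members. The sixth was Plin2, without HepKO replicate 1. Over these fits the difference in the log2 ratio of Cidec to Cideb ran from -0.49 to 0.33 and that in the Plin3 share from -0.84 to 1.11 percentage points, changing sign without HepKO replicate 1 for both, and without WT replicate 2 for Cidec. With raw counts in place of counts per kilobase, the share differences were -5.93 points for Plin4 and -3.16 for Plin5, a change set by the gene lengths.

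The main fit assumed no pairing by replicate number. The correlations of same-numbered deviations were -0.139, -0.109 and 0.030, and those of other pairs ran from -0.157 to 0.218. Deviations were taken from the mean of 3 libraries, which ties these values to each other, so they cannot settle whether samples were paired. With the replicate block 5071 genes (31.6%) and 6 members were called, the sixth being Cidec (FDR 0.00464). The SE of Cidec was 0.11 with the block and 0.45 without it. With no filter Cidec was called as well (log2 fold change -0.90, FDR 0.00563). The causes of the changes under library totals, the filter and the block were not tested. With 3 libraries a group, an exact test of a ratio or share cannot go below 0.1.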
